A study of Homo sapiens with 21 samples.

Results

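Small nucleolar RNA (snoRNA) host genes are transcribed into RNAs whose introns carry snoRNAs. The 8 noncoding host genes described here were SNHG1, SNHG3, SNHG5, SNHG6, SNHG7, SNHG8, SNHG12 and GAS5, among 18734 genes tested in all. They were followed through the array probesets, groups of short probes, that the platform annotation pairs with 1 of these symbols and no other gene. There were 101 such probesets, and 93 of them passed a filter on low signal, with 22 of 27 kept for GAS5, 23 of 24 for SNHG1, 16 of 17 for SNHG12, 5 of 6 for SNHG6 and all of the probesets of SNHG3 (5), SNHG5 (10), SNHG7 (6) and SNHG8 (6). No gene of the set was absent. The cells were MCF10A, a non-tumorigenic line of human mammary epithelium obtained from a cell bank and used at low passage. All groups shared 24 h of plating in medium from which epidermal growth factor (EGF) was left out and then 24 h of starvation in DMEM/F12 with 1% horse serum. The 0 min group received no EGF, and the other 6 groups received EGF at 20 ng/ml for 20, 40, 60, 120, 240 or 480 min. Each group had 3 biological replicates, 1 array each, so 21 arrays were used. There were no unstimulated arrays at the later times, so EGF and time after the medium change cannot be told apart.

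After splicing, the introns of a host gene are opened and trimmed, and the snoRNAs they hold are packed with core proteins into snoRNPs. Box C/D snoRNAs guide 2'-O-methylation, and box H/ACA snoRNAs guide pseudouridylation, mostly of ribosomal RNA. The spliced exons of many host genes are translated poorly or not at all and are removed by nonsense-mediated decay, so a host transcript's level depends on both synthesis and decay. Several host genes begin with a run of pyrimidines (a terminal oligopyrimidine or TOP start), as ribosomal protein genes do, and transcripts of that class respond to growth signals at the level of translation. GAS5 takes its name from growth arrest, during which its RNA accumulates in several cell types.

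The start regions of 4 host genes whose levels changed over the time course are given first because the TOP-like start is a feature the genes were not chosen for. The sequences are those of RefSeq for GRCh38.p14, from 60 bases before the annotated start to 50 bases from it, written 5′ to 3′ on the strand of the gene. Capitals mark a TOP-like run (a C followed by at least 4 pyrimidines, beginning within 5 bases of the start) and a TATAAA within 40 bases before the start.
SNHG1, chr11:62855836-62855945, minus strand: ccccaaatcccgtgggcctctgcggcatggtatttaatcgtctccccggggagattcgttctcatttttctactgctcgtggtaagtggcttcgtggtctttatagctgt
SNHG3, chr1:28505883-28505992, plus strand: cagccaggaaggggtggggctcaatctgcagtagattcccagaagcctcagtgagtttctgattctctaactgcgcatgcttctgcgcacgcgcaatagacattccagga
SNHG7, chr9:136728135-136728244, minus strand: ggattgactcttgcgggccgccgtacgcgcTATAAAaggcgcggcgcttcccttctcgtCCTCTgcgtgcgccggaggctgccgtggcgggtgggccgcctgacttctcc
SNHG12, chr1:28581824-28581933, minus strand: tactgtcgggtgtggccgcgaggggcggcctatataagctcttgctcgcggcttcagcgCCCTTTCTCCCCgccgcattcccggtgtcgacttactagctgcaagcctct

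The table held a start region for 7 of the 8 genes, all except SNHG6. A TOP-like run stood at the start of 4 of the 7, SNHG5, SNHG7, SNHG8 and SNHG12, and at 21.1% of the 35116 promoters in the table. Each of the 7 genes had a single annotated start there, and other starts were not searched. A gene without a run here may therefore have one at another start. The longest, 12 bases, was that of SNHG12. The other motifs were searched on both strands of the whole 300-base entry, apart from TATAAA, which was searched on the gene's strand. The E-box CACGTG, the kind of site that MYC and MAX bind, was found in SNHG7 alone (1 of 7, against 7.26% of all promoters), and so was TATAAA (1 of 7, against 2.44%). The ETS core CGGAAG was found in SNHG12 (19.5% of all promoters) and CCAAT in SNHG5 and GAS5 (34.6%). The AP-1 site TGACTCA, which FOS and JUN proteins bind, was in none of the 7 and in 4.95% of all promoters. SNHG7 and SNHG12, which changed over the time course, shared the TOP-like run with SNHG5 and SNHG8, for which no gene-level test was passed.

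The arrays behaved as labelled for the early EGF response. FOS, an immediate early transcription factor, was 4.32 ± 0.22 log2 units above 0 min at 20 min and EGR1, another, was 2.27 ± 0.13 above it (here and throughout, ± gives limma's standard error of a difference between 3 and 3 arrays unless SD is named). Replicate arrays correlated across genes at 0.94 to 0.987. Of the 203 probesets of 10 basal epithelial markers (keratins 5, 6A, 14 and 17, TP63, LAMB3 and others), 97% passed the signal filter, against 35.4% of 178 for blood and endothelial markers and 73.7% of all single-gene probesets. For luminal and fibroblast markers the shares were 50.9% and 59.9%. Fewer cells and less RNA per cell cannot be told apart in such bulk samples. Levels are log2(intensity + 16), the median over a gene's kept probesets, and are compared only between times of the same gene.

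Of the 8 host genes, 5 changed over the time course in the moderated F-test of limma at a Benjamini-Hochberg adjusted p under 0.05, where 24% of all genes tested did. They were SNHG7 (adjusted p = 1.2e-05), SNHG6 (9e-04), SNHG3 (0.001), SNHG1 (0.0011) and SNHG12 (0.0074). GAS5 (0.15), SNHG5 (0.22) and SNHG8 (0.28) did not pass. The 5 can be described by 2 shapes that overlap in part. SNHG3 and SNHG12 were called higher at both 120 and 240 min. SNHG1, SNHG6 and SNHG7 had all arrays at 20 and 40 min below the 0 min arrays. Their means stood at or above the starting mean by 240 min. SNHG7 was also called higher at 120 min. SNHG3 too had its lowest mean at 40 min, 6.89 against 6.93 at 0 min.

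**Figure D1:**
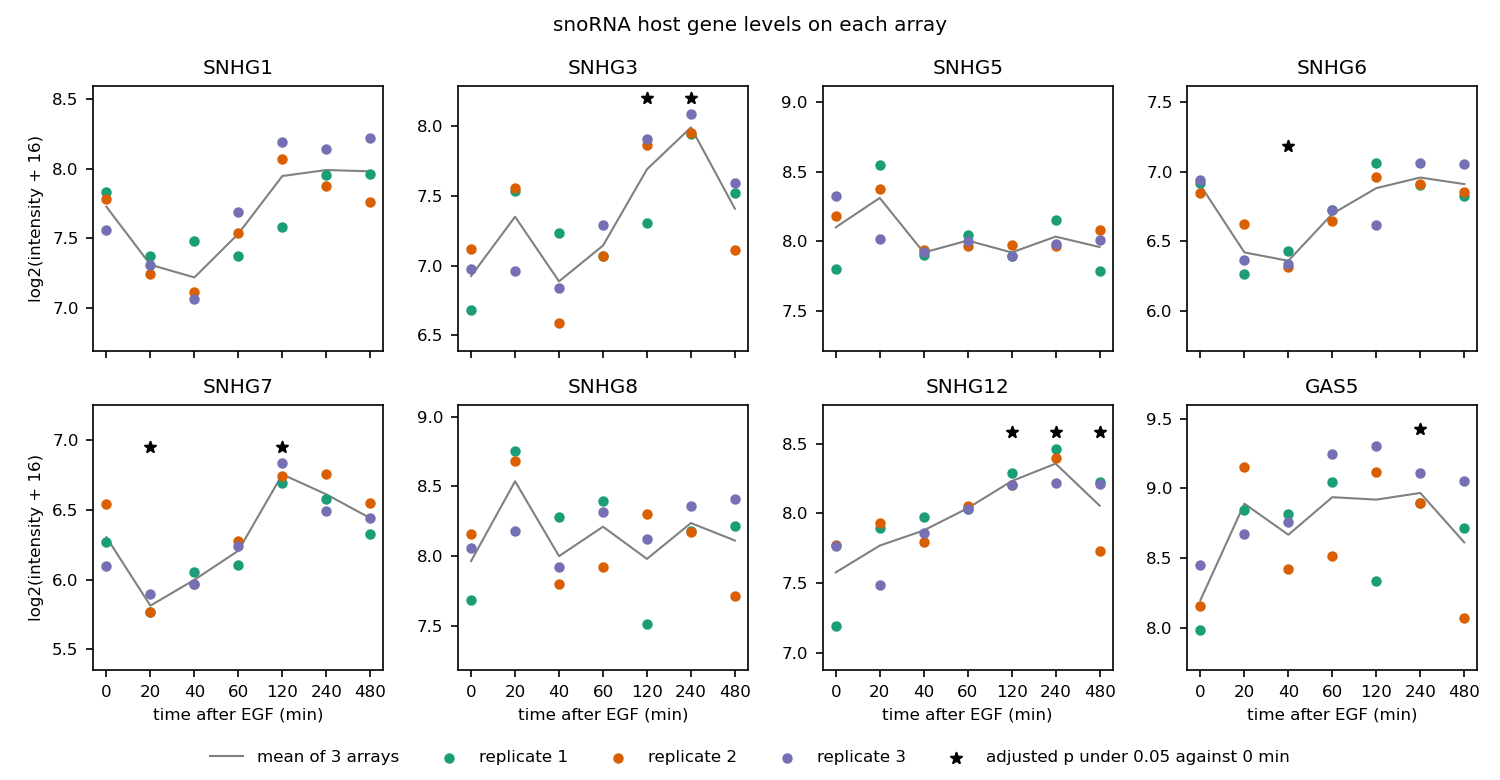
Level of each host gene on each of the 21 arrays, as log2(intensity + 16), against time after EGF in minutes (categories, not to scale). Points are arrays coloured by replicate, the line joins the means of 3 arrays, each panel spans the same number of log2 units, and a star marks an adjusted p under 0.05 against 0 min. SNHG3 at 240 min lies at 7.94 to 8.09, above the 0 min arrays at 6.68 to 7.12, and SNHG6 at 40 min lies at 6.31 to 6.43, below the 0 min arrays at 6.85 to 6.94.

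Against 0 min, 3 of 8 host genes were higher at 120 min (background 9.91% of all genes higher) and 3 of 8 at 240 min (11.9%), and 1 of 8 at 480 min (13.5%). None of 8 was higher at 20, 40 or 60 min, where 0.801%, 1.63% and 4.28% of all genes were. In the other direction 1 of 8 was lower at 20 min (0.0747%) and 1 of 8 at 40 min (0.4%), and none at later times (0.982% at 60 min, 2.89% at 120 min, 5.39% at 240 min and 6.25% at 480 min). The median change of the 8 was 0.20, -0.11, 0.06, 0.34, 0.29 and 0.20 log2 units at the 6 times in order, beside medians over all genes between 0.01 and 0.05. At an unadjusted p under 0.05 in the same limma fit, 3, 0, 2, 4, 4 and 2 host genes were higher at the 6 times in order, where 13.2%, 7.15%, 13.3%, 17.7%, 18.7% and 20.3% of all genes were. At that level 3 and 3 host genes were lower at 20 and 40 min (5.68% and 4.72% of all genes) and 0 at 60, 120, 240 and 480 min (6.5%, 7.93%, 10.4% and 10.7%). All 6 comparisons share the same 0 min arrays.

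SNHG3 carries H/ACA snoRNAs and overlaps the protein-coding gene RCC1. Its arrays stood at 6.68, 7.12 and 6.97 at 0 min and at 7.94, 7.95 and 8.09 at 240 min. All 3 late arrays were above all 3 starting arrays, and the late arrays lay close together. SNHG3 rose by 1.07 ± 0.19 log2 units at 240 min, 2.09-fold (limma adjusted p = 0.00044), the largest change among the 8 genes at any time. At 120 min its arrays stood at 7.30, 7.86 and 7.91, again all above the starting arrays, and the rise was 0.77 ± 0.19 (adjusted p = 0.01). That call ended without the 0 min replicate 1 (0.64, adjusted p = 0.061), the 120 min replicate 2 (0.68, 0.057) or the 120 min replicate 3 (0.66, 0.064), whereas the call at 240 min held in each of the 21 refits that left out 1 array, with 0.94 to 1.16. By 480 min the arrays stood at 7.52, 7.11 and 7.59, and the difference from 0 min, 0.48 ± 0.19, did not pass (adjusted p = 0.085). At 20 min the difference was 0.43 ± 0.19 (adjusted p = 0.24), with 2 arrays at 7.53 and 7.56 and 1 at 6.96.

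SNHG12 holds both H/ACA and C/D snoRNAs, among them SNORA44. It stood at 7.19, 7.77 and 7.77 at 0 min, at 8.29, 8.20 and 8.20 at 120 min, and at 8.46, 8.39 and 8.21 at 240 min. The starting replicate 1 lay apart from its 2 partners, yet every array from 40 to 240 min was above all 3 of them. SNHG12 rose by 0.65 ± 0.16 at 120 min (1.57-fold, adjusted p = 0.0067) and by 0.78 ± 0.16 at 240 min (1.72-fold, adjusted p = 0.0012). It was also higher at 480 min, by 0.48 ± 0.16 (adjusted p = 0.034), although the 480 min replicate 2 stood at 7.73, within the 0 min range. Its means went up at every step from 0 to 240 min (7.58, 7.77, 7.88, 8.04, 8.23 and 8.36), and no single step passed the test. Without the 0 min replicate 1 the 120 min value was 0.46 (adjusted p = 0.055) and the 480 min value 0.28 (0.21). The 480 min call also ended without the 480 min replicate 1 (0.39, 0.15) or replicate 3 (0.40, 0.15). The 240 min call held in all 21 refits, at 0.59 to 0.88.

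SNHG7 carries the H/ACA snoRNAs SNORA17A and SNORA17B. Its arrays read 6.27, 6.54 and 6.10 at 0 min and 5.77, 5.77 and 5.90 at 20 min, with no overlap. It fell by 0.49 ± 0.11 at 20 min, to 0.712 of its starting value (adjusted p = 0.037). At 120 min the arrays read 6.69, 6.74 and 6.83, above all starting arrays, and SNHG7 was higher by 0.45 ± 0.11 (1.37-fold, adjusted p = 0.0095). It was the 1 gene of the set with a called change between successive times, 0 to 20 min (0.875% of all genes called) and 60 to 120 min, where it rose by 0.55 ± 0.11 (adjusted p = 0.0063, 2.83% of all genes called). In the other intervals, 20 to 40, 40 to 60, 120 to 240 and 240 to 480 min, no gene of the set passed, where 0.528%, 0.181%, 1.27% and 1.21% of all genes did. At 40, 240 and 480 min the differences from 0 min were -0.31, 0.31 and 0.14, and none passed (adjusted p = 0.23, 0.064 and 0.45). The fall at 20 min was near the threshold. With a pseudocount of 64 in place of 16 it was -0.29 and did not pass (adjusted p = 0.062), and with that pseudocount the rise at 120 min was 0.30 (0.0074). The 20 min call also ended in a fit of the 6 arrays alone (0.33). In refits without 1 array it ended without the 0 min replicate 1 (-0.51, adjusted p = 0.1) or replicate 2 (-0.37, 0.13) and without the 20 min replicate 1 (-0.47, 0.15) or replicate 2 (-0.47, 0.19). It also ended, with the value unmoved at -0.49, without the 40 min replicate 3 (0.052), the 120 min replicate 2 (0.054), the 240 min replicate 1 (0.05) or the 480 min replicate 3 (0.051). The rise at 120 min ended without the 0 min replicate 3 (0.35, 0.063).

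SNHG6 carries the C/D snoRNA SNORD87. It had the closest starting arrays of the set, 6.92, 6.85 and 6.94, and stood at 6.26, 6.63 and 6.37 at 20 min, 6.43, 6.31 and 6.33 at 40 min and 6.73, 6.65 and 6.72 at 60 min. All 9 of these early arrays were below all 3 starting arrays. SNHG6 fell by 0.54 ± 0.12 at 40 min, to 0.687 of its starting value (adjusted p = 0.013), and with a pseudocount of 64 the value was -0.31 (0.014). The difference at 20 min was -0.48 ± 0.12 (adjusted p = 0.058) and at 60 min -0.21 ± 0.12 (adjusted p = 0.35). From 120 min on it lay within 0.06 of the start (-0.02, 0.06 and 0.01). The 40 min call ended without the 0 min replicate 1 (-0.53, adjusted p = 0.052) or replicate 3 (-0.52, 0.057) and without the 40 min replicate 2 (-0.52, 0.062) or replicate 3 (-0.53, 0.061). The 20 min difference passed without the 20 min replicate 2 (-0.59, 0.033), the 120 min replicate 1 (-0.48, 0.043) or the 120 min replicate 3 (-0.48, 0.025).

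SNHG1 carries a row of C/D snoRNAs, SNORD28 and SNORD30 among them. It read 7.84, 7.78 and 7.56 at 0 min, 7.38, 7.25 and 7.31 at 20 min, 7.48, 7.11 and 7.06 at 40 min, and 7.96, 7.87 and 8.14 at 240 min. The arrays at 20 and 40 min were all below the starting arrays and those at 240 min all above them. No single time passed against 0 min: the differences were -0.42 ± 0.16 at 20 min (adjusted p = 0.19), -0.51 ± 0.16 at 40 min (0.12) and 0.26 ± 0.16 at 240 min (0.28). SNHG1 passed the F-test over the 6 times and its later arrays stood above its early ones.

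The contrast of 240 with 40 min, added after the time courses had been seen, measured that return without the 0 min arrays. Of the 8 genes, 5 were higher at 240 min, where 7.81% of all genes were. SNHG1 was higher by 0.77 ± 0.16 (adjusted p = 0.0017), SNHG3 2.15-fold (0.00039), SNHG6 by 0.60 ± 0.12 (0.0013), SNHG7 by 0.61 ± 0.11 (0.00067) and SNHG12 by 0.48 ± 0.16 (0.048). The first 4 kept the call in all 21 refits without 1 array. SNHG12 kept it in 7 of 21, with values between 0.43 and 0.55, and lost it most clearly without the 40 min replicate 2 (0.44, adjusted p = 0.16) or the 240 min replicate 1 (0.43, 0.15). SNHG5 (0.11), SNHG8 (0.24) and GAS5 (0.30) did not pass (adjusted p = 0.69, 0.57 and 0.53). Because the contrast was chosen from the same time courses, its p-values describe these data and are no independent support.

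GAS5 carries a row of C/D snoRNAs, SNORD74 and SNORD78 among them. It read 7.99, 8.16 and 8.45 at 0 min, 8.85, 9.15 and 8.67 at 20 min, 9.05, 8.51 and 9.25 at 60 min, and 8.90, 8.90 and 9.11 at 240 min. At these 3 times all arrays were above the starting arrays, while at 120 min they spread from 8.33 to 9.31 and at 480 min from 8.07 to 9.06. The mean was above the start at each of the 6 times, by 0.41 to 0.77, and only the 240 min difference passed, 0.77 ± 0.25 (1.70-fold, adjusted p = 0.035). That call ended without the 0 min replicate 1 (0.66, adjusted p = 0.12) or replicate 2 (0.75, 0.087) and without any 1 of the 240 min arrays (0.80, 0.80 and 0.70, with 0.064, 0.07 and 0.12). GAS5 did not pass the F-test. Without the 120 min replicate 1 the 120 min difference was 1.01 (adjusted p = 0.006).

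SNHG5, which carries SNORD50A, and SNHG8, which carries SNORA24, passed no gene-level test. SNHG5 read 7.80, 8.18 and 8.33 at 0 min, and its means at the other times lay between 7.92 and 8.31. Its differences from 0 min ran from -0.18 to 0.21 with a standard error of 0.13. SNHG8 read 7.68, 8.15 and 8.06 at 0 min and 8.75, 8.68 and 8.18 at 20 min, when its arrays were all above the start (a difference of 0.57 ± 0.21, adjusted p = 0.18). From 40 min on its differences ran from 0.02 to 0.27.

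Counted over the set, the arrays of 2 genes lay all above the 0 min arrays at 20 min (10.3% of all genes), 1 at 40 min (9.21%), 2 at 60 min (14.3%), 3 at 120 min (16%) and 5 at 240 min (21.7%). Those of 3 genes lay all below at 20 min (6.09%), 3 at 40 min (7.12%) and 1 at 60 min (9.01%), and none at 120 min (8.05%) or 240 min (14%). At 480 min no gene of the set was clear of its 0 min arrays in either direction (20.2% of all genes above, 12.3% below).

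**Figure D2:**
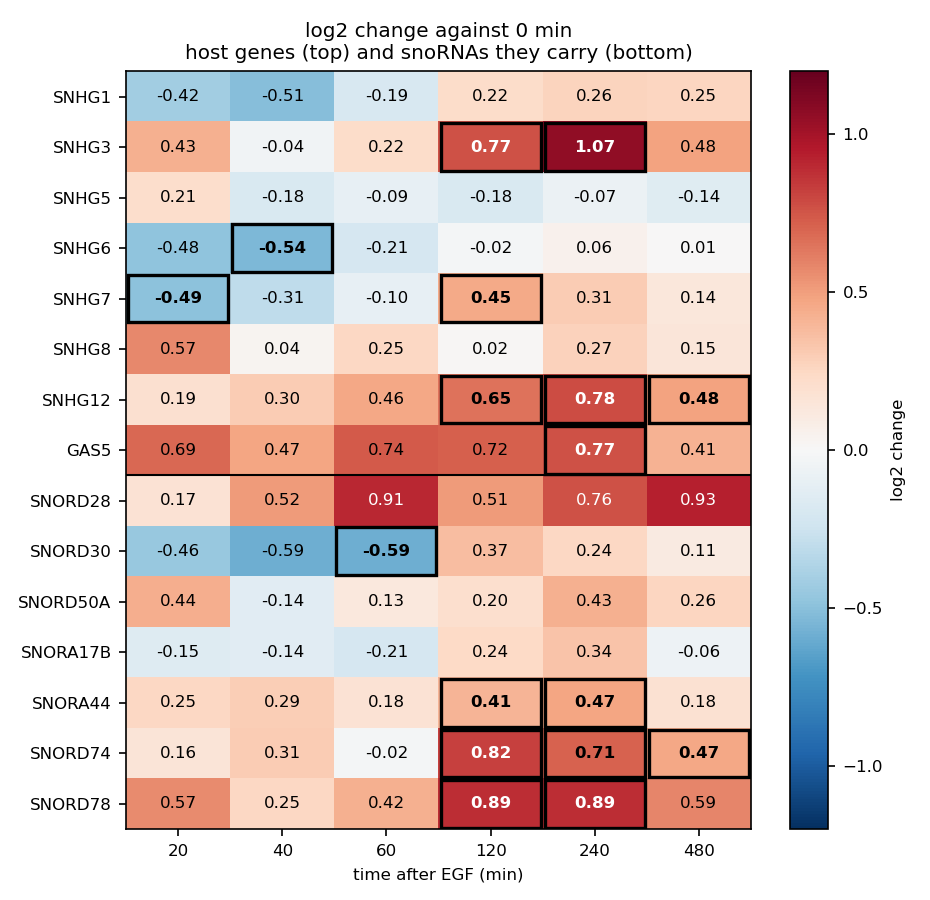
log2 change against 0 min of the 8 host genes (upper rows) and of 7 snoRNAs they carry (lower rows), by time after EGF in minutes. The 7 are those with kept single-gene probesets. Red is higher, blue is lower, and a frame marks an adjusted p under 0.05. The framed host gene values are those of SNHG3 and GAS5 at 240 min (1.07 and 0.77), SNHG3 at 120 min (0.77), SNHG12 at 120, 240 and 480 min, SNHG6 at 40 min (-0.54) and SNHG7 at 20 and 120 min (-0.49 and 0.45).

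The probesets of a gene were compared next, to see whether the whole annotated transcript moved. Probesets of 1 gene share its RNA and are not replicates. All 5 of SNHG3 were positive at 120 and 240 min, 3 and 4 of them passing on their own (10.1% and 13.9% of all probesets called, either direction). All 16 of SNHG12 were positive at both times, with 10 and 11 passing. All 6 of SNHG7 were negative at 20 min (1 passing, 0.491% called) and positive at 120 min (2 passing). Of 12 further kept probesets that name SNHG7 together with a snoRNA, described below, only 4 were positive at 120 min. All 5 of SNHG6 were negative at 20 and 40 min, from -0.88 to -0.32 at 40 min, and none passed on its own (1.45% called). Of the 23 probesets of SNHG1, 22 were negative at 20 min, 21 at 40 min (2 passing) and 1 at 240 min (2 passing, higher). For SNHG5, 8 of 10 probesets were positive at 120 and at 240 min, with 1 passing at each. The gene value of SNHG5 was negative at both times (-0.18 and -0.07). Of the 22 probesets of GAS5, 18 were positive at 240 min, with 3 passing. Their median change was 0.29 at 20 min, 0.44 at 240 min and 0.06 at 480 min. The gene value of GAS5 was larger at these times (0.69, 0.77 and 0.41), so it does not describe the whole annotated transcript.

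**Figure D3:**
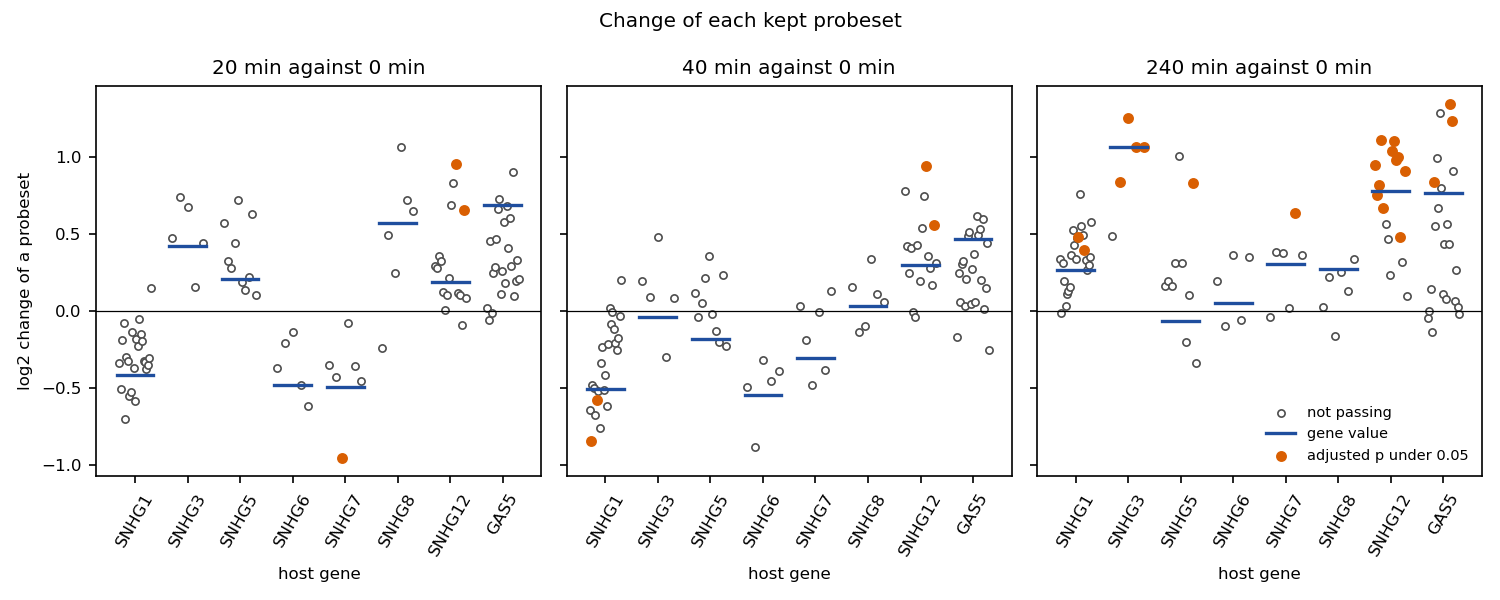
log2 change against 0 min of each kept single-gene probeset of the 8 host genes at 20, 40 and 240 min. Open circles did not pass and filled circles had an adjusted p under 0.05; the blue line is the change of the gene's value, the median over probesets on each array. SNHG12 has 11 of 16 probesets passing at 240 min, all positive, and the 5 of SNHG6 lie below 0 at 20 and 40 min.

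A test of whether probesets of 1 gene changed unequally (limma's diffSplice, F-test per gene) was passed by GAS5 at 120 min (adjusted p = 0.012), 240 min (0.0028) and 480 min (0.0017), and by SNHG12 at 120 min (0.024) and 240 min (0.035). Among all genes with several probesets 22.3%, 20.6% and 25.2% passed at these times, and 32.1%, 5.03% and 7.48% at 60, 20 and 40 min, where no gene of the set passed. The 22 kept GAS5 probesets bear numbers in 3 separate runs of 2, 17 and 3. At 240 min their median changes were -0.02, 0.56 and 0.03. Whether all 3 runs lie in GAS5 was not tested, since no build is named for the array. From the run of 17 alone, an alternative chosen after seeing the data, GAS5 was higher at 60 min (0.95, adjusted p = 0.02), 120 min (0.77, 0.034) and 240 min (0.80, 0.023). A further 25 kept probesets named a gene of the set together with another gene and were left out of the values above. The 3 of GAS5 were positive at all 6 times, with 1 passing at 120 min and 2 at 240 min (median 0.98). The 2 of SNHG12 and the 2 of SNHG3 were positive at 120 and 240 min with 1 of each passing. Of the 6 of SNHG1, 1 was positive at 20 min and 1 at 40 min. All 6 were positive at 120 and 240 min, with 1 passing at 240 min. In the separate fit of single-gene probesets, 10.1% and 13.9% were called at 120 and 240 min in either direction. The 12 several-gene probesets of SNHG7 had medians of -0.30 at both 20 and 40 min and of -0.04 at 120 min, with none passing at these times. At 120 min 4 of the 12 were positive, with a range of -0.445 to 0.381. Those with the highest starting levels, 9.66 and 9.52, showed -0.319 and -0.445 there. Of the 12, 1 passed as lower at 60 min and 1 as higher at each of 240 and 480 min.

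For 7 of the 30 listed snoRNAs inside these hosts, probesets that name no other gene passed the signal filter and were tested. Some of the rest, such as SNORA61 of SNHG12 and SNORD76 of GAS5, had kept probesets that also name the host. Those are among the several-gene probesets described above, so not every snoRNA left out was dim. A probeset inside a snoRNA also matches the unspliced host RNA, so mature snoRNA and precursor cannot be told apart. SNORD74 and SNORD78, C/D snoRNAs of GAS5, were higher at 120 min (0.82 ± 0.11, adjusted p = 2.5e-05, and 0.89 ± 0.25, adjusted p = 0.02) and at 240 min (0.71, 0.00011, and 0.89, 0.015). SNORD74 was still higher at 480 min (0.47, adjusted p = 0.0046). SNORA44 of SNHG12 was higher at 120 and 240 min (0.41 and 0.47 ± 0.12, adjusted p = 0.034 and 0.011). SNORD30 of SNHG1 was lower at 60 min, by 0.59 ± 0.16 (adjusted p = 0.031), with -0.46 at 20 min (0.16) and -0.59 at 40 min (0.054). SNORD28 of SNHG1, SNORD50A of SNHG5 and SNORA17B of SNHG7 passed at no time. Most of these rest on a single probeset: only SNORA44 (2) and SNORA17B (3) had more.

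The arrays differed in how far gene probesets stood above unnamed ones. This array index, the median log2 level of kept single-gene probesets minus that of unnamed probesets, averaged 1.92 at 0 min and 1.95 to 2.02 at the EGF times, so it was lowest in the starting group. Within times, over 21 arrays that share time means, it went with the level of GAS5 (r = 0.87), SNHG3 (0.86), SNHG8 (0.80) and SNHG1 (0.72), less with SNHG12 (0.39), and barely with SNHG5 (0.09), SNHG7 (0.01) and SNHG6 (-0.04). Over all genes the median r was 0.13, with a 5th percentile of -0.72 and a 95th percentile of 0.84. With the index as a covariate in the fit, SNHG3 was higher by 0.39 at 120 min, against 0.77 without it (adjusted p = 0.048), and by 0.80 at 240 min (adjusted p = 5.9e-05), GAS5 was higher by 0.41 at 240 min (adjusted p = 0.05, under the threshold before rounding), and SNHG1 was lower at 20 min (-0.62, adjusted p = 0.022) and 40 min (-0.57, 0.0064). The 480 min call of SNHG12 (0.38, adjusted p = 0.084) and the 20 min call of SNHG7 (-0.49, 0.062) ended. The part of the index in these results beyond this was not tested.

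**Figure D4:**
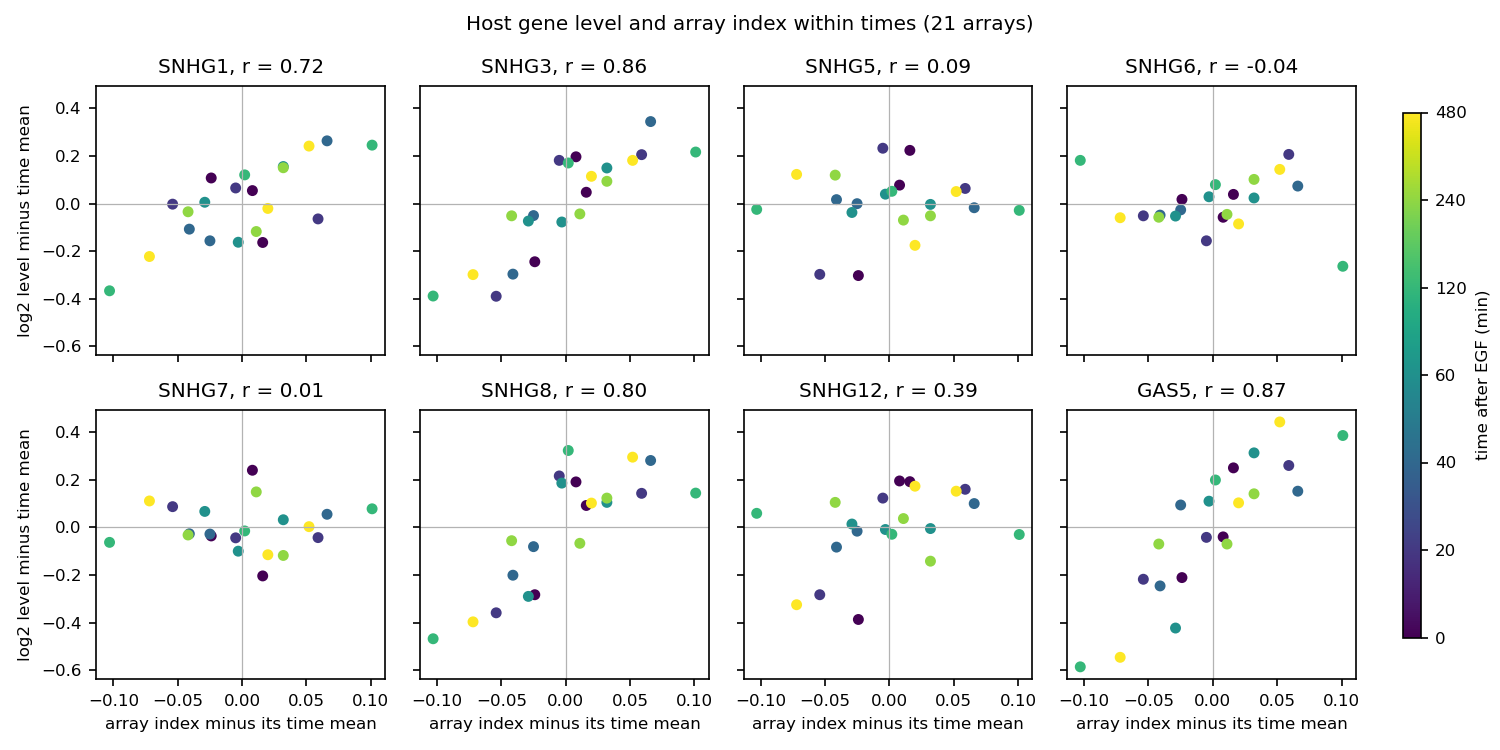
Level of each host gene on an array minus its mean at that time (log2 units) against the array index minus its mean at that time, for the 21 arrays, coloured by time after EGF in minutes. r is Pearson's correlation, a description of arrays that share time means: points of GAS5 (0.87) and SNHG3 (0.86) run along a line and those of SNHG6 (-0.04) and SNHG7 (0.01) do not.

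Lists of other snoRNA genes were counted in the same way, against the same 0 min arrays. Of 19 tested snoRNP core proteins and assembly factors, 8 were higher at 120 min, 10 at 240 min and 12 at 480 min (background 9.91%, 11.9% and 13.5%). At 480 min 1 was lower (background 6.25%). NOP56, a C/D core protein, was higher by 0.85, 0.80 and 0.88, DKC1, the pseudouridine synthase of H/ACA particles, by 0.41, 0.70 and 0.87, and NOLC1, a chaperone of both, by 0.64, 0.75 and 0.97. Of 47 protein-coding snoRNA hosts, which include NOP56 and DKC1, 8, 13 and 14 were higher at these times and none, none and 2 lower. WDR43, a host in ribosome assembly, was higher at 60 min by 0.98 and at 240 min by 1.38. Of 12 other noncoding hosts, 2 were higher at 120 min, 1 at 240 min and none at 480 min. Among all genes 9.91%, 11.9% and 13.5% were, so these single-time counts do not set the list apart. The F-test over the times was passed by 8 of the 12 (66.7%), beside 62.5% of the 8 host genes and 24% of all genes. A change over the time course was thus not particular to the 8. SNHG15 was higher at 60 and 120 min (0.68 and 0.54), whereas SNHG29 and EPB41L4A-AS1 passed the F-test and no single time. The median change of the 12 at 480 min was 0.02, and that of the snoRNP proteins 0.58.

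**Figure D5:**
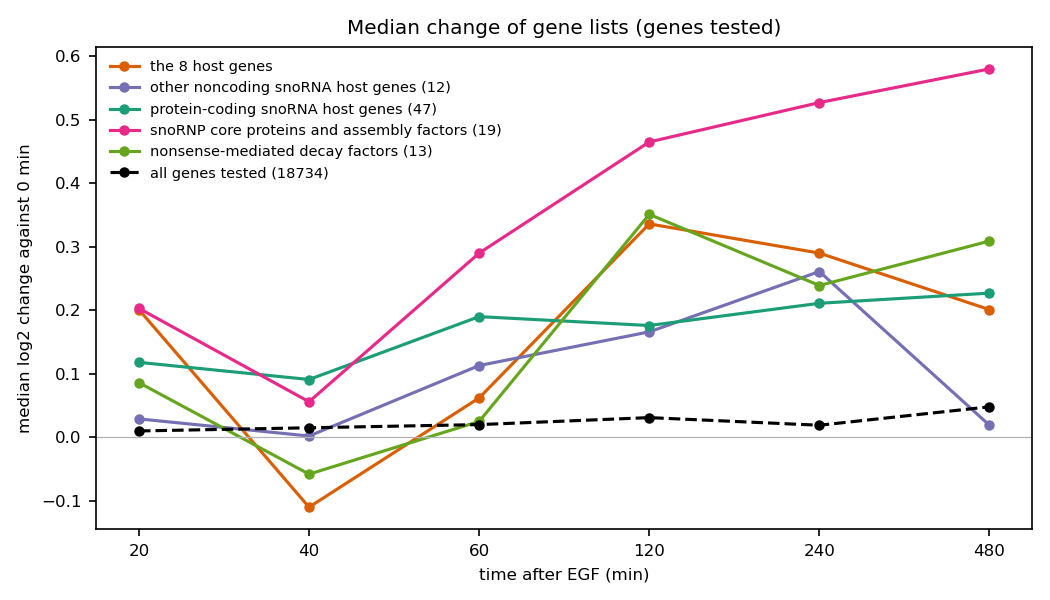
Median log2 change against 0 min of the 8 host genes and of other gene lists, by time after EGF in minutes; the number of genes tested is in brackets and the dashed line is the median of all 18734 genes tested. The snoRNP proteins reach 0.58 at 480 min, while the 8 host genes are highest at 120 min (0.34) and at 0.20 at 480 min.

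Of 13 tested nonsense-mediated decay factors, 4 were higher at 120 min and 3 at each of 240 and 480 min, and none was lower. Among all genes, 9.91%, 11.9% and 13.5% were higher at these times and 2.89%, 5.39% and 6.25% lower. EIF4A3 and RNPS1, proteins of the exon junction complex, were higher at 480 min by 0.69 and 0.55. UPF1, the central helicase of the pathway, passed the F-test and no single time, with its lowest value at 40 min (-0.25). Of 10 genes of MYC, MAX and partners, 3 were higher and 2 lower at 120 min (9.91% and 2.89% of all genes). MYC, the growth-promoting transcription factor, was higher at all 6 times (0.66 at 20 min, 1.03 at 120 min, 0.45 at 480 min) from 2 probesets, and the repressor MXD1 was higher from 40 min on (1.32 at 120 min). MNT was higher at 60 and 120 min (0.60 and 0.68). Of 12 other long noncoding RNA genes, 2 were higher and 3 lower at 120 min (9.91% and 2.89% of all genes). CYTOR was higher from 40 min on (0.71 to 0.98), DLEU2 lower from 120 min on (-1.04 to -1.35), and HOTAIR lower from 40 min on (-0.49 to -0.68).

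Protein-coding neighbours in the RefSeq table were called at some times and not at others. Among all genes, 9.91%, 11.9% and 13.5% were higher at 120, 240 and 480 min, and 2.89%, 5.39% and 6.25% lower. WDR74, beside SNHG1, was higher at 120, 240 and 480 min (0.53, 0.68 and 0.70). It showed 0.10 and 0.17 at 20 and 40 min, the times of lowest SNHG1. RCC1, which overlaps SNHG3, was higher at 240 and 480 min (0.34 and 0.53) with 0.09 at 120 min, where SNHG3 was higher by 0.77. TRNAU1AP, which overlaps SNHG12, was higher at 240 min (0.39), and SYNCRIP, beside SNHG5, at 120, 240 and 480 min (0.46, 0.60 and 0.43). PRSS12, beside SNHG8, was lower at 240 and 480 min (-0.36 and -0.78). The other 10 tested neighbours, among them ZBTB37, which overlaps GAS5, and DIPK1B, which overlaps SNHG7, passed at no time.

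Over the 7 time means, SNHG1 followed SNHG6 (r = 0.96) and SNHG7 (0.92), SNHG6 followed SNHG7 (0.87), and SNHG3 followed SNHG12 (0.83). The same pairs of SNHG1, SNHG6 and SNHG7 correlated at only -0.14, 0.21 and -0.34 within times, over 21 arrays. Among 4253 genes with at least 3 kept probesets that passed the F-test, the time means most like those of SNHG7 were those of SNHG29, another noncoding host (r = 0.981), DNAJC17 (0.979) and RPL7A, a ribosomal protein and snoRNA host (0.978). For SNHG6 they were UQCC6 (0.999), GUCY1A2 (0.979) and ZNF584 (0.978), for SNHG3 RPP40 (0.991), SIMC1 (0.985) and TBCCD1 (0.984), and for SNHG1 SPHK1 (0.98), ZNF584 (0.978) and LRFN4 (0.978). With 7 points and a pool of this size, high values are found for many genes.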

How the data were processed

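Gene expression was measured on Affymetrix exon arrays with total RNA after DNase digestion and ribosomal RNA removal, per the labels' protocols. The authors deposited linear intensities for 1384231 probesets on each array. The submitters' processing notes name Affymetrix Expression Console 1.1 and PLIER; neither settings nor labelling or scan batches are given in the sources used here. Array medians lay between 20.44 and 20.56, so arrays had been equalised. Symbols came from the platform annotation, updated through RefSeq synonyms where unique; no build is named.

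Intensities became log2(intensity + 16), which understates changes of dim genes. Probesets with a mean at or above the median of all (5.18) were kept, and each gene took the median of its kept single-gene probesets, of which 1 sufficed. All 21 arrays entered 1 model in limma 3.58.1 (R 4.3.3), with 14 residual and 6.34 prior degrees of freedom; p-values are two-sided and Benjamini-Hochberg adjusted over 18734 genes. The median replicate SD was 0.175, and 3 arrays a time limit the precision. The fit was tested on simulated data. Members, lists and tests were chosen with earlier results of these data known. Named genes were all members, up to 3 genes per list by the F-test, the nearest coding neighbours, FOS and EGR1, and for up to 4 members the 3 genes most alike over time. Alternatives are given in the closing section. Letters in the sample names were not used to pair the arrays in the main model. Same-letter correlations of deviations ran from -0.52 to 0.55, and 19 of 63 were over 0.1. Different-letter ones ran from -0.63 to 0.67, and 45 of 126 were over 0.1. These values cannot show how the replicates were made.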

Additional observations from a re-analysis of the deposited data

How the results depend on the processing

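The 5 genes that passed the F-test (SNHG1, SNHG3, SNHG6, SNHG7 and SNHG12) passed it in all 11 alternative settings and in all 21 refits without 1 array. GAS5, SNHG5 and SNHG8 each passed it in at most 1 of either. The rises of SNHG3 and SNHG12 at 120 and 240 min and the fall of SNHG6 at 40 min kept their calls in all 12 settings. Among these values SNHG3 at 120 min was 0.394 (adjusted p = 0.048) with the array index as covariate. SNHG6 at 40 min was -0.309 with a pseudocount of 64, and SNHG12 at 120 min was 0.432 without 3 low-index arrays. These were the 0 min replicate 1, the 120 min replicate 1 and the 480 min replicate 2, each lowest in index at its time. SNHG7 at 120 min kept its call in 11 of 12, not with only the 6 arrays (0.11), and SNHG12 at 480 min in 10 of 12, not with the covariate (0.084) or only the 6 arrays (0.13). GAS5 at 240 min kept it in 10 of 13, not with no filter (0.626, adjusted p = 0.16), the filter at the 75th percentile (0.669, 0.076) or the mean over probesets (0.48, 0.091). SNHG7 at 20 min kept it in 8 of 12. It lost the call with a pseudocount of 64 (-0.287, 0.062), the covariate (0.062), only the 6 arrays (0.33) or without the 3 low-index arrays (0.1). SNHG6 at 20 min passed in 3 of 12: with a pseudocount of 64 (-0.298, 0.038), where it was the host gene called in place of SNHG7, with no filter (0.021) and with at least 3 kept probesets (0.049). Host genes lower at 20 min numbered 2 with no filter and 2 with at least 3 kept probesets. They numbered 0 with only the 6 arrays compared and 0 without the 3 low-index arrays, an alternative chosen after seeing the data. Host genes lower at 40 min numbered 2 with the index covariate. Host genes higher at 480 min numbered 0 with that covariate and 0 with only the 6 arrays. Between successive times the covariate gave 2 host genes at 60 to 120 min and 1 at 240 to 480 min. In the main fit 2.83% and 1.21% of all genes were called in these intervals. Shares of all genes under the alternative settings are not given here, so these counts are no result about the set. The cause of the shifts was not tested.

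Signs turned for values that passed no test. SNHG6 at 120 min was 0.012 with a pseudocount of 64, 0.017 with no filter and 0.055 with the mean over probesets, and at 240 min -0.013 with the filter at the 75th percentile. With the mean over probesets SNHG5 was 0.038, 0.174, 0.15, 0.255 and 0.153 from 40 to 480 min, SNHG3 0.111 at 40 min and SNHG7 0.003 at 60 min. With the covariate SNHG8 was -0.071, -0.029, -0.372, -0.005 and -0.156 from 40 to 480 min, SNHG3 -0.046 at 60 min and SNHG1 -0.019 at 120 min. Without the 3 low-index arrays SNHG12 was -0.001 at 20 min and SNHG8 -0.106 at 40 min.

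Without 1 array in turn, host genes higher numbered 0 to 1 at 60 min, 1 to 4 at 120 min, 2 to 3 at 240 min and 0 to 2 at 480 min, and host genes lower 0 to 2 at 20 min and 0 to 1 at 40 min. Ranges that crossed 0 were -0.001 to 0.334 for SNHG12 at 20 min, -0.211 to 0.109 for SNHG3 at 40 min, -0.246 to 0.017 and -0.218 to 0.045 for SNHG5 at 60 and 240 min, -0.112 to 0.11 and -0.064 to 0.051 for SNHG6 at 120 and 480 min, -0.198 to 0.024 for SNHG7 at 60 min, and -0.106 to 0.135, -0.146 to 0.249 and 0 to 0.345 for SNHG8 at 40, 120 and 480 min.

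With the sample-name letters as a replicate block in limma, host genes higher at 120 min numbered 4 (GAS5 added, adjusted p = 0.044). With the block 5 passed the F-test. In the main fit 9.91% of all genes were higher at 120 min and 24% passed the F-test. Shares with the block are not given here. Whether the letters pair arrays is not known. SNHG12 at 240 against 40 min kept its call in 6 of 11 settings, not with the block (adjusted p = 0.066), a pseudocount of 1 (0.064), no filter (0.089), the mean over probesets (0.051) or the covariate (0.056). Genes called over all genes at 20 min numbered 91 to 894 without 1 array, against 164 with all.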
